A study of Mus musculus with 17 samples.

Results

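Dentate granule cells are the principal neurons of the dentate gyrus, the first stage of the hippocampal circuit, and they send mossy fibre axons to CA3 pyramidal cells and to the mossy cells of the hilus. In temporal lobe epilepsy these cells are known for sprouting mossy fibres, for spreading out of their compact layer and for losing the calcium buffer calbindin. The 8 genes described here, Prox1, Calb1, C1ql2, C1ql3, Dsp, Tdo2, Lct and Dock10, mark the granule cell layer and were taken by their symbols as a list of its identity genes. All 8 were found by their Ensembl identifiers among the 55450 genes listed in each count file, and all 8 were among the 17615 genes with enough reads to be tested.

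RNA sequencing was done on poly(A) RNA from adult mouse hippocampus in 17 libraries, and whether each came from a single animal is not given in the sources used here. Per the study's methods the animals were C57BL/6J mice of 2 to 3 months. Epilepsy was induced by kainic acid in the right amygdala, and 1 week later a pair of AAV9 vectors was placed in the right ventral hippocampus, one carrying dCas9-VP64 (a Cas9 that cannot cut, fused to a transcriptional activator) under a doxycycline-responsive promoter and one carrying a guide RNA with an rtTA-tdTomato cassette driven by the Camk2a promoter, which biases expression to excitatory neurons. All 3 groups thus carried the activator, and doxycycline food was given for 2 weeks before the tissue was collected. The guide sgLacZ matches bacterial lacZ and is the control guide, while sgKcna1 directs the activator to the promoter region of Kcna1, the gene of the potassium channel Kv1.1. There were 5 control sgLacZ libraries from sham animals without epilepsy, 6 epileptic sgLacZ libraries and 6 epileptic sgKcna1 libraries. A control group with sgKcna1 was not analysed here, so a difference between the sgKcna1 mice and the controls carries both the epilepsy and the guide. The vector reaches part of the hippocampus, and each library holds RNA of the whole tissue sample. In such bulk RNA a lower level can come from fewer granule cells or from less RNA per cell, which cannot be told apart.

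The libraries held between 11839240 and 28311328 reads assigned to genes. Levels of single genes are given in CPM (reads of a gene scaled to a common library total), with library sizes corrected by the TMM method. Sums over a list of genes are in CPM without this correction, whose factors ran from 0.906 in sgKcna1 replicate 12 to 1.06 in epileptic sgLacZ replicate 7. The library of epileptic sgKcna1 replicate 12 was the shallowest, with 41.5% of its reads unmapped against 11.0% to 27.7% in the other 16. Reads of Xist and of Y-linked genes marked 4 of 6 epileptic sgLacZ, 2 of 6 epileptic sgKcna1 and 2 of 5 control libraries as female, and 7 libraries held at least 10 reads of both kinds. Kcna1 itself, the target of the guide, was at 13.9 to 29.5 CPM in 5 sgKcna1 libraries and at 133 CPM in replicate 12, against 16.9 to 56.7 CPM in the epileptic sgLacZ and 25.5 to 44.0 CPM in the control libraries. Its difference between sgKcna1 and epileptic sgLacZ was 0.32 on the log2 scale (SE 0.47, with an adjusted p of 0.706 in edgeR), so these libraries show no rise of the target beyond their spread. Markers of the choroid plexus, a tissue next to the hippocampus, summed to between 291 and 12038 CPM, with control libraries at 1162 to 12038, epileptic sgLacZ at 4591 to 11614 and sgKcna1 at 291 to 7989.

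Prox1, the homeobox transcription factor that sets and maintains granule cell fate, C1ql2, Lct and Dock10 are shown first by the 250 bases before a RefSeq start of each. Together with Dsp, whose stretch is not printed, these 4 genes varied together from library to library. The sequences are from RefSeq for GRCm38.p6 and read 5′ to 3′ on the strand of the gene. The Prox1 stretch is chr1:190170828-190171077 on the minus strand, that of C1ql2 is chr1:120340332-120340581 on the plus strand, that of Lct is chr1:128328319-128328568 on the minus strand and that of Dock10 is chr1:80758554-80758803 on the minus strand. Capitals mark CAGATG, an E-box of the type bound by NeuroD factors, and TATAAA, the TATA box, searched on both strands.
Prox1: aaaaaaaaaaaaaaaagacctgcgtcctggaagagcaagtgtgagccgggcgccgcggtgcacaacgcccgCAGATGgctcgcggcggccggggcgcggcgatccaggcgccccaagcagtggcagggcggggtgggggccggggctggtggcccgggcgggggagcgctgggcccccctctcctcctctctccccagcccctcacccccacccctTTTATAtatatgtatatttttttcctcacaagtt
C1ql2: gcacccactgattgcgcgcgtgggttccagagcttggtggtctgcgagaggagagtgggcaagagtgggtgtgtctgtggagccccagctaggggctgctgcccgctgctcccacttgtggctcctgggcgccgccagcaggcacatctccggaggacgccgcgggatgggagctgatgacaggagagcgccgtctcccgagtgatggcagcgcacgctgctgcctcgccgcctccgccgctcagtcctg
Lct: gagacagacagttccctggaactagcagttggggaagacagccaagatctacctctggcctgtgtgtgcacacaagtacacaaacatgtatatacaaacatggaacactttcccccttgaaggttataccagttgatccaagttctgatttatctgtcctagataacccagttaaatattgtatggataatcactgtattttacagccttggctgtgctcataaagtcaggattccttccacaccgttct
Dock10: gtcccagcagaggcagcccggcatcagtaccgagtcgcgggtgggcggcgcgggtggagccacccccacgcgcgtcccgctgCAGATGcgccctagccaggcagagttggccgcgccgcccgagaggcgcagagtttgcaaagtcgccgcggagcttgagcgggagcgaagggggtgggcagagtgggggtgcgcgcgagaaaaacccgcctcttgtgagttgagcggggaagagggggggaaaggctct
The Prox1 stretch held CAGATG from base -179 and TATAAA, on the opposite strand, from base -34, counted from the start. The Dock10 stretch held CAGATG from base -168, and the stretch before a further RefSeq start of Dock10 held it from base -126. Among 32851 promoter stretches of the same length, 14.4% held CAGATG and 12.4% held TATAAA. The letters TGACGTCA (the cyclic AMP response element), its shorter form TGACG and TGANTCA (the AP-1 site), which stand in 1.55%, 17.8% and 6.75% of all stretches, were in none of the 9 stretches found for 7 of the 8 genes. The GC content of these 4 stretches was 64.8% for Prox1, 68.8% for C1ql2, 42.8% for Lct and 70.4% for Dock10, beside a median of 52.4% over all stretches. No sequence was matched for Calb1.

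In the control hippocampus the 8 genes differed widely in level. Per kilobase of exon, C1ql2 stood highest at 55.6 ± 10.7 CPM per kb (SD, n = 5), followed by Calb1 at 34.3 ± 5.28, Prox1 at 13.0 ± 1.90, Dock10 at 6.17 ± 0.191, C1ql3 at 5.94 ± 0.908, Lct at 3.59 ± 0.869, Dsp at 2.31 ± 0.615 and Tdo2 at 2.27 ± 0.512 CPM per kb. Calb1 stood above Prox1, Prox1 above Dock10, and C1ql3 above Lct with no overlap of the 5 libraries. C1ql2 and Calb1, Dock10 and C1ql3, Lct and Dsp, and Dsp and Tdo2 overlapped. The place of C1ql3 in this order depends on how its reads are counted, as described with that gene.

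Epileptic and control mice that both received sgLacZ were compared to ask what the epileptic state changed in these genes. In that comparison 0 of the 8 granule cell genes passed an adjusted p under 0.05, beside 11.0% of all tested genes (1278 genes or 7.26% higher and 662 or 3.76% lower in the epileptic mice). At an unadjusted p under 0.05 stood 3 of the 8, beside 34.7% of all tested genes. These were C1ql2 and C1ql3 with higher estimates, beside 18.8% of all tested genes in that direction, and Tdo2 with a lower one, beside 15.9%. Estimates lay above 0 for 6 of the 8 and below 0 for 2, beside 52.0% and 48.0% of all tested genes. The median log2 fold change of the 8 was 0.25, beside 0.02 over all tested genes. These tallies use the unstranded count of C1ql3, whose direction depends on the counting. With both strand columns added, 5 of the 8 lay above 0 and 3 below, 1 stood higher and 2 lower at an unadjusted p under 0.05, and the median was 0.099. The median was 0.16 with the percent of unmapped reads as a covariate. The count of 1940 calls over all genes was itself unstable: leaving out single libraries gave between 0 and 5526, with 0 in 7 of the 17 fits (each without control replicate 13, 14, 16 or 23 or epileptic sgLacZ replicate 4, 7 or 9) and 5526 without epileptic sgLacZ replicate 5.

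The guide comparison, epileptic sgKcna1 against epileptic sgLacZ, asks how epileptic tissue differed between the guide groups. Kcna1 itself did not rise beyond its spread in it, and 2 of 6 against 4 of 6 libraries were female. No gene at all passed the adjusted threshold there (0% of 17615 tested, with 3387 at an unadjusted p under 0.05 in edgeR). DESeq2 called 143 genes and voom with quality weights called 12, none of them among the 8. At an unadjusted p under 0.05 stood 5 of the 8 granule cell genes, Prox1, C1ql2, Lct and Dock10 with lower and Calb1 with higher estimates, beside 19.2% of all tested genes. In the lower direction the count was 4 of 8, beside 10.5% of all tested genes, and in the higher direction 1 of 8, beside 8.69%. Estimates lay below 0 for 7 of the 8 and above 0 for 1, beside 50.7% and 49.3% of all tested genes. With both strand columns added, and likewise with the percent of unmapped reads as a covariate, 6 lay below 0 and 2 above, since C1ql3 turned. The median log2 fold change of the 8 was -0.49, beside -0.01 over all tested genes, and -0.31 without epileptic sgLacZ replicate 4. The 4 genes with lower estimates are not separate lines of evidence, since they vary together from library to library. Against the controls, the sgKcna1 mice gave 0 of 8 called and 0% of all tested genes called by edgeR, with 1192 genes at an unadjusted p under 0.05, and DESeq2 called 39 and voom 71. Of the 8, only Tdo2 stood at an unadjusted p under 0.05 there, beside 6.77% of all tested genes, 4.29% in the higher and 2.48% in the lower direction. Estimates lay above 0 for 2 of the 8 and below 0 for 6, beside 52.8% and 47.2%. With both strand columns added 1 lay above 0 and 7 below. Both epileptic groups share the comparison with the same 5 controls, and the epileptic sgLacZ group enters 2 of the 3 comparisons.

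**Figure D1:**
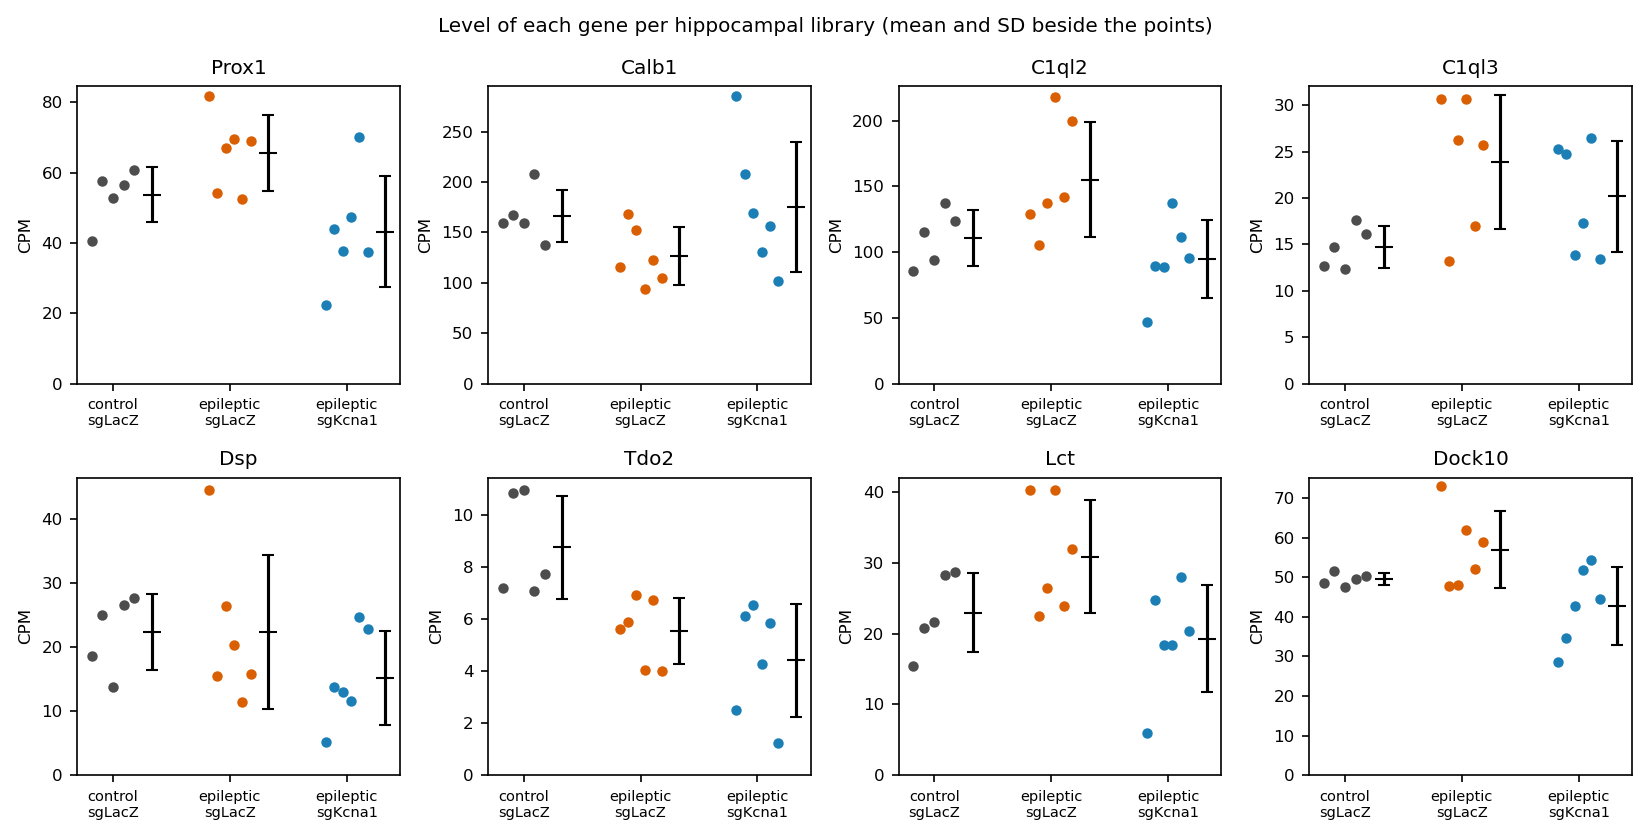
Level of each of the 8 genes in CPM (vertical axes, from 0) in the 5 control sgLacZ, 6 epileptic sgLacZ and 6 epileptic sgKcna1 libraries; each point is 1 library, in order of replicate number, and the bar beside the points is the mean with the SD. The control libraries of Dock10 lie within 47.7 to 51.6 CPM, and all 12 epileptic libraries of Tdo2 lie below all 5 control libraries.

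**Figure D2:**
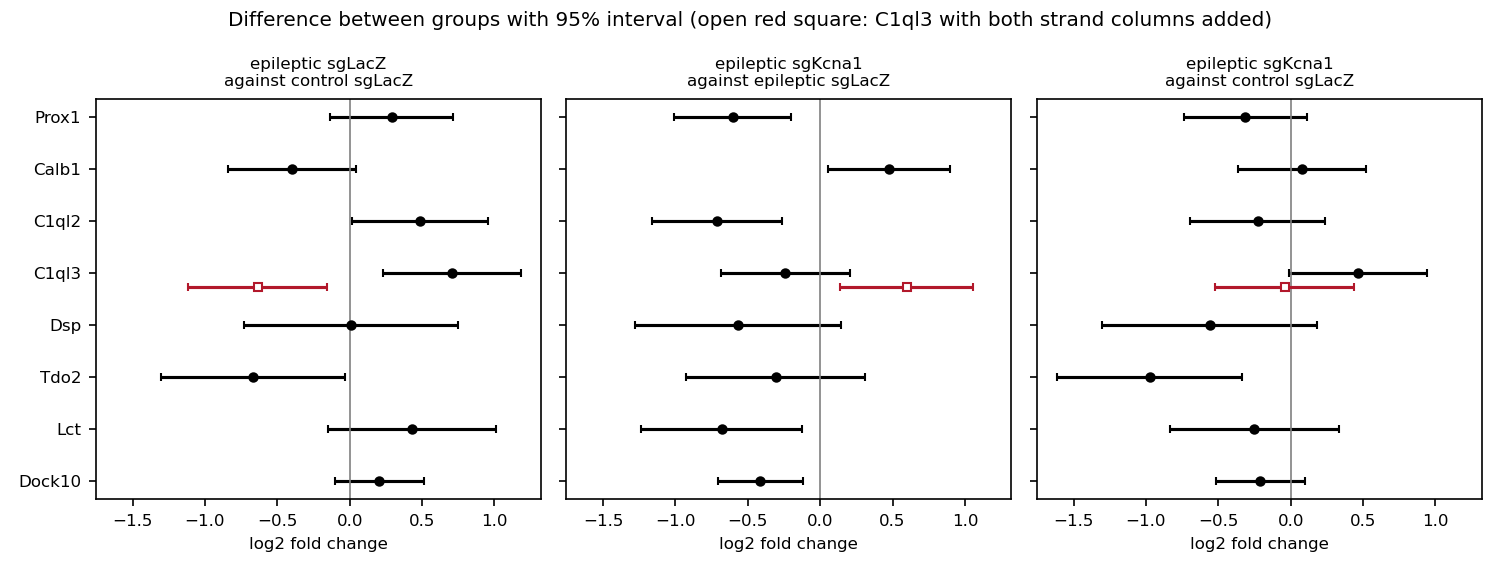
Log2 fold change of each gene in the 3 comparisons (horizontal axes) with the 95% interval from edgeR; filled points use the unstranded counts, and the open square is C1ql3 with both strand columns added. Of the 7 genes other than C1ql3, 6 lie below 0 in the comparison of the guides and Calb1 lies above, while C1ql3 changes side between its 2 ways of counting.

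Prox1 (ENSMUSG00000010175) lies at chr1:190118035-190170827 in GRCm38.p6 and overlaps the antisense gene Prox1os by 532 bases. Its level in the control libraries was 40.6, 57.6, 52.9, 56.5 and 60.9 CPM in replicates 13, 14, 15, 16 and 23. The epileptic sgLacZ libraries ran from 52.5 through a median of 67.9 to 81.7 CPM, and the sgKcna1 libraries from 22.4 through 40.8 to 70.3 CPM. All 6 epileptic sgLacZ libraries were within or above the control range, 4 of them above it, and 5 of the 6 sgKcna1 libraries were below every epileptic sgLacZ library, with replicate 11 inside that range at 70.3 CPM. The means were 53.7 ± 7.85 (SD, n = 5), 65.7 ± 10.8 (SD, n = 6) and 43.2 ± 15.8 CPM (SD, n = 6). The log2 fold change was 0.29 (SE 0.20, with an adjusted p of 0.314 in edgeR) for epileptic sgLacZ against control and -0.60 (95% interval -1.01 to -0.20, edgeR unadjusted p = 0.0056, adjusted p = 0.213) for sgKcna1 against epileptic sgLacZ. Leaving out sgKcna1 replicate 1, the lowest library, gave -0.47 and an adjusted p of 0.25.

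Calb1 (ENSMUSG00000028222, chr4:15881264-15906709) encodes calbindin-D28k, the cytosolic calcium buffer of mature granule cells, which CA1 pyramidal cells and some interneurons also make. Control libraries held 159, 168, 160, 208 and 138 CPM in the same order of replicates. Levels in the epileptic sgLacZ mice ran from 93.5 through a median of 119 to 168 CPM, and in the sgKcna1 mice from 101 through 163 to 286 CPM. In 4 of the 6 epileptic sgLacZ libraries Calb1 lay below all controls, while the sgKcna1 libraries spanned the control range on both sides, 2 above and 2 below it. The means were 166 ± 25.6 (SD, n = 5), 126 ± 28.8 (SD, n = 6) and 175 ± 64.9 CPM (SD, n = 6). The difference was -0.40 on the log2 scale for epileptic sgLacZ against control (95% interval -0.84 to 0.04, edgeR adjusted p = 0.184), and limma-voom with quality weights, but none of the other 8 settings, called it (-0.49, adjusted p = 0.0258). For sgKcna1 against epileptic sgLacZ it was 0.47 (95% interval 0.05 to 0.90, edgeR adjusted p = 0.231). Replicate 1 of the sgKcna1 group was the highest library of the series, and without it this estimate fell to 0.28 and that against the controls turned from 0.08 to -0.12.

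Among 6 tested genes for other cytosolic calcium-binding proteins, 0 passed the adjusted threshold in any comparison. Of all tested genes 11.0% passed it in epileptic sgLacZ against control and 0% in the other comparisons. Pvalb, the buffer of fast-spiking interneurons, was at 112 ± 14.4 CPM in the controls and 55.6 ± 33.6 CPM in the epileptic sgLacZ mice, a log2 fold change of -1.01 (edgeR adjusted p = 0.0524), and S100b, an astrocytic calcium-binding protein, gave -0.67 (adjusted p = 0.0656). The sum of the 6 interneuron markers was 1240 to 1471 CPM in control, 853 to 1344 in epileptic sgLacZ and 1018 to 1456 in sgKcna1 libraries. Whether interneuron RNA had a part in the Calb1 values was not tested.

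C1ql2 and C1ql3 encode secreted C1q-like proteins that mossy fibre terminals release and that gather postsynaptic kainate receptors, with neurexin-3 on the presynaptic side and the adhesion receptor Adgrb3 as known partners. C1ql2 (ENSMUSG00000036907) is a compact gene at chr1:120340582-120343174. Control libraries held 85.3, 116, 93.9, 137 and 123 CPM. Its level ran from 106 through a median of 139 to 218 CPM in the epileptic sgLacZ mice and from 46.7 through 92.8 to 137 CPM in the sgKcna1 mice. The epileptic sgLacZ libraries reached from within the control range upward, 3 of 6 above it, and 4 of the 6 sgKcna1 libraries lay below every epileptic sgLacZ library. The means were 111 ± 21.3 (SD, n = 5), 155 ± 43.8 (SD, n = 6) and 94.8 ± 29.8 CPM (SD, n = 6). C1ql2 had the largest of the 8 estimates by size in the comparison of the guides, -0.71 on the log2 scale (SE 0.21, 95% interval -1.16 to -0.27, edgeR unadjusted p = 0.0035, adjusted p = 0.213). It passed the threshold only where epileptic sgLacZ replicate 5 was left out (-0.80, adjusted p = 0.0421). For epileptic sgLacZ against control the estimate was 0.48 (SE 0.22, with an adjusted p of 0.134 in edgeR), and 0.54 with an adjusted p of 0.0341 in voom with quality weights.

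C1ql3 (ENSMUSG00000049630, chr2:13001887-13010864) could not be given a direction, because its value turned with the column of counts. In the unstranded column, where a read over 2 genes is set aside whichever strand it is on, the 17 libraries held 7386 C1ql3 reads, and in the 2 strand columns together 67298, a ratio of 9.11. For the other 7 genes this ratio was 1.00 to 1.04. Pter, which overlaps C1ql3 by 1568 bases in the RefSeq annotation, gained 1362 reads between the same columns. A listed gene without a symbol, ENSMUSG00000102900, went from 177 to 55284 reads, and its gain was 75.2% to 99.6% of that of C1ql3 in each library. This pair of identifiers was singled out after its values were seen, and where the unnamed gene lies was not analysed here.

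By the unstranded column C1ql3 stood at 12.7, 14.7, 12.3, 17.7 and 16.1 CPM in the control libraries, at 13.2 through a median of 26.0 to 30.6 CPM in the epileptic sgLacZ mice and at 13.4 through 21.0 to 26.5 CPM in the sgKcna1 mice. With both strand columns added it stood at 217, 230, 162, 234 and 195 CPM in the control libraries, at 109 through 116 to 205 CPM in the epileptic sgLacZ mice and at 142 through 161 to 365 CPM in the sgKcna1 mice. Epileptic sgLacZ libraries were thus mostly above the controls by the first count, 4 of 6 over all of them, and mostly under the controls by the second, 5 of 6 under all of them. The log2 fold change was 0.71 (SE 0.23, with an adjusted p of 0.0511 in edgeR) by the unstranded column and -0.64 (SE 0.23, adjusted p = 0.0622) with both strands. In sgKcna1 against epileptic sgLacZ it was -0.24 (adjusted p = 0.511) and 0.60 (adjusted p = 0.205). Calls of a rise of C1ql3 under other settings, such as DESeq2 with an adjusted p of 0.0231, rest on the unstranded column, which holds about 1 of 9 of the reads.

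**Figure D3:**
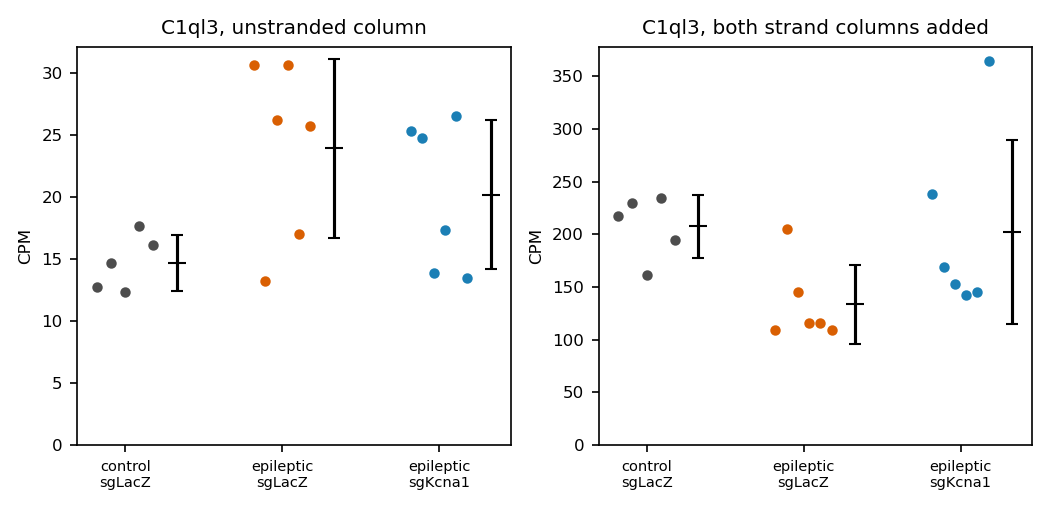
C1ql3 in CPM (vertical axes, from 0) per library by group, counted from the unstranded column (left) and from both strand columns added (right), with the mean and SD beside the points. The epileptic sgLacZ mean is 23.9 CPM against 14.7 in the controls on the left and 134 CPM against 208 on the right.

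Among the tested receptors and partners of the C1q-like proteins none rose in epileptic sgLacZ against control mice, and Nrxn3 fell. Of all tested genes 7.26% were called higher and 3.76% lower there. Nrxn3, the neurexin that binds C1ql2 and C1ql3, was at 372 ± 34.6 CPM (SD, n = 5) in the controls and 216 ± 50.3 CPM (SD, n = 6) in the epileptic sgLacZ mice, a log2 fold change of -0.78 (SE 0.20, with an adjusted p of 0.0347 in edgeR). It was called under all 9 other settings and in 10 of the 17 fits without 1 library each, and its direction did not turn in any. In the sgKcna1 mice Nrxn3 was at 357 ± 135 CPM (SD, n = 6), and no gene of this list was called in either comparison of those mice.

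**Figure D4:**
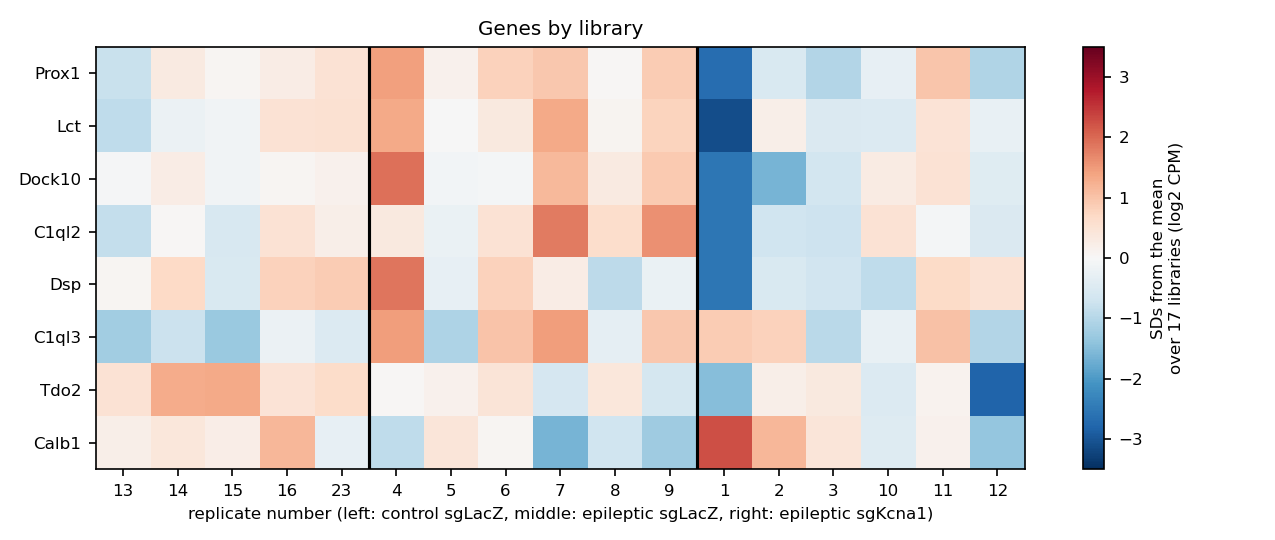
The 8 genes (rows) in the 17 libraries (columns, by group and replicate number), coloured by the number of SDs of log2 CPM from the mean of the gene over all libraries. In epileptic sgKcna1 replicate 1, Prox1, Lct, Dock10, C1ql2 and Dsp are all at their lowest and Calb1 is at its highest.

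Dsp (ENSMUSG00000054889, chr13:38151294-38198577) encodes desmoplakin, the plakin that ties desmosomes to intermediate filaments, and in the hippocampus its RNA is a mark of the dentate gyrus. The control libraries held 18.6, 24.9, 13.8, 26.5 and 27.6 CPM. Those of epileptic sgLacZ mice ran from 11.4 through a median of 18.1 to 44.5 CPM, and those of sgKcna1 mice from 5.19 through 13.3 to 24.6 CPM. The 3 groups overlapped, and Dsp had the widest spread within groups of the 8 genes, an SD of 0.67 on the log2 scale against a median of 0.34 over all tested genes. The estimate for epileptic sgLacZ against control was 0.01 (95% interval -0.73 to 0.75, edgeR adjusted p = 0.991), so a 1.5-fold change either way is inside the interval. For sgKcna1 against epileptic sgLacZ it was -0.57 (95% interval -1.28 to 0.14, adjusted p = 0.336). Without epileptic sgLacZ replicate 4, the highest library, the first became -0.31 and the second -0.24.

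Of the 9 listed desmosome partners of Dsp, 6 were tested and 0 were called in any comparison. The share of all tested genes was 11.0% in epileptic sgLacZ against control and 0% in the other comparisons. Pkp2, a plakophilin of the desmosomal plaque, was at 21.3 ± 3.29 CPM (SD, n = 5) in the controls, 28.5 ± 3.58 in the epileptic sgLacZ and 19.4 ± 6.45 CPM in the sgKcna1 mice (SD, n = 6), and its first difference had an edgeR adjusted p of 0.132. Dsg2, a desmosomal cadherin, was at 3.28 ± 1.05, 4.59 ± 1.16 and 3.34 ± 1.08 CPM in the same order (adjusted p = 0.197).

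Tdo2 (ENSMUSG00000028011, chr3:81958412-81975728) encodes tryptophan 2,3-dioxygenase, which opens the kynurenine pathway of tryptophan breakdown. The control libraries held 7.20, 10.9, 11.0, 7.06 and 7.72 CPM. Its level in the epileptic sgLacZ libraries ran from 3.99 through a median of 5.76 to 6.94 CPM and in the sgKcna1 libraries from 1.21 through 5.04 to 6.56 CPM. All 12 epileptic libraries lay below all 5 controls. Tdo2 was the only one of the 8 genes whose groups did not overlap in epileptic sgLacZ against control, beside 4.39% of all tested genes in either direction and 2.40% in the lower one. The same held in sgKcna1 against control, beside 1.14% in either direction and 0.573% in the lower one. The means were 8.76 ± 1.98 (SD, n = 5), 5.53 ± 1.28 (SD, n = 6) and 4.41 ± 2.17 CPM (SD, n = 6).

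The fitted difference of Tdo2 was -0.67 on the log2 scale for epileptic sgLacZ against control (SE 0.30, 95% interval -1.30 to -0.03, edgeR adjusted p = 0.128). It passed the threshold when only the 2 groups compared were fitted (-0.67, adjusted p = 0.0385), in voom with quality weights (-0.75, adjusted p = 0.0117) and without sgKcna1 replicate 12 (-0.67, adjusted p = 0.0385), and its sign was the same in all 26 alternatives. For sgKcna1 against control the estimate was -0.97 (SE 0.31, with an adjusted p of 0.609 in edgeR), and -0.81 without sgKcna1 replicate 12. That library rests on 13 Tdo2 reads, the fewest of all, while the other 16 held 57 to 262. The epileptic groups themselves differed by -0.31 (95% interval -0.92 to 0.31, adjusted p = 0.545), and by -0.13 without sgKcna1 replicate 12, -0.19 without sgKcna1 replicate 1, -0.12 with the percent of unmapped reads as a covariate and -0.071 in voom.

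Of the 10 listed kynurenine pathway enzymes downstream of or parallel to Tdo2, only 4 had enough reads to be tested. None of the 4 was called in any comparison. Beside this, 11.0% of all tested genes were called in epileptic sgLacZ against control and 0% in the other comparisons. Ido2, an indoleamine dioxygenase, was at 2.22 ± 0.348 CPM (SD, n = 5) in control and 1.89 ± 0.341 CPM (SD, n = 6) in epileptic sgLacZ mice (edgeR adjusted p = 0.444). Haao, which makes quinolinic acid, was at 0.532 ± 0.560 and 0.827 ± 0.374 CPM in these groups (adjusted p = 0.521).

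Lct (ENSMUSG00000026354, chr1:128284756-128328318) encodes lactase, an intestinal enzyme whose RNA is also found in granule cells. The control libraries held 15.4, 20.9, 21.7, 28.3 and 28.7 CPM. Epileptic sgLacZ libraries ran from 22.6 through a median of 29.2 to 40.4 CPM and sgKcna1 libraries from 5.93 through 19.4 to 28.0 CPM. The groups overlapped, with 3 of 6 epileptic sgLacZ libraries above all controls and 4 of 6 sgKcna1 libraries below all epileptic sgLacZ libraries. The means were 23.0 ± 5.56 (SD, n = 5), 30.9 ± 7.99 (SD, n = 6) and 19.3 ± 7.57 CPM (SD, n = 6). The log2 fold change was 0.43 (SE 0.28, with an adjusted p of 0.278 in edgeR) for epileptic sgLacZ against control and -0.68 (95% interval -1.24 to -0.12, edgeR unadjusted p = 0.019, adjusted p = 0.22) for the comparison of the guides. Without sgKcna1 replicate 1 the second was -0.49.

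Dock10 (ENSMUSG00000038608, chr1:80501068-80758765) encodes an exchange factor that activates the small GTPases Rac1 and Cdc42 and so bears on the actin of dendritic spines. The control libraries held 48.5, 51.6, 47.7, 49.6 and 50.5 CPM, the tightest group of any of the 8 genes, with a coefficient of variation of 3.10%. In the epileptic sgLacZ mice the level ran from 47.9 through a median of 55.6 to 73.1 CPM and in the sgKcna1 mice from 28.7 through 43.6 to 54.5 CPM. Of the sgKcna1 libraries 4 of 6 lay below all controls and 2 above all controls, and the epileptic sgLacZ libraries reached upward from the control range. The means were 49.6 ± 1.54 (SD, n = 5), 57.1 ± 9.71 (SD, n = 6) and 42.8 ± 9.88 CPM (SD, n = 6). The log2 fold change was 0.20 (SE 0.15, with an adjusted p of 0.329 in edgeR) for epileptic sgLacZ against control and -0.41 (95% interval -0.71 to -0.12, edgeR unadjusted p = 0.0079, adjusted p = 0.213) for sgKcna1 against epileptic sgLacZ.

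Among 8 relatives of Dock10 and small GTPases, 2 passed the threshold in epileptic sgLacZ against control mice and none in the other comparisons. The shares of all tested genes were 11.0% and 0%. Dock3, a Rac exchange factor of neurons, had a log2 fold change of 2.11 (edgeR adjusted p = 0.033) and Rhoa, the GTPase of stress fibres, 0.27 (adjusted p = 0.0445). Both share reads with a gene on the other strand, and with the 2 strand columns added the estimates were 0.32 (adjusted p = 0.177) and -0.05 (adjusted p = 0.694), so neither call is reported as a change.

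Across the 17 libraries 5 of the 8 genes, Prox1, C1ql2, Dsp, Lct and Dock10, varied together. Their 10 pairs had a Pearson r of log2 CPM between 0.50 and 0.92, and a Spearman rho between 0.33 and 0.86. The closest pairs were Prox1 with Lct (r = 0.92, rho = 0.86) and Prox1 with Dock10 (r = 0.87, rho = 0.80), and the loosest was C1ql2 with Dsp (r = 0.50, rho = 0.33). As deviations from the group means, pooled over the 3 groups, the same pairs had r between 0.43 and 0.89. This did not hold for every pair in every group. C1ql2 with Dsp had r = -0.13 in epileptic sgLacZ, 0.82 in control and 0.71 in sgKcna1 libraries. Lct with Dock10 had r = 0.34 in control, 0.91 in epileptic sgLacZ and 0.72 in sgKcna1 libraries. Groups of 5 or 6 libraries give little precision. Epileptic sgKcna1 replicate 1, the lowest library in all 5 genes, carries part of this: without it the 10 pairs had r between 0.13 and 0.84, with Prox1 and Lct at 0.84, Prox1 and Dock10 at 0.76 and C1ql2 and Dsp at 0.13. Without the 2 libraries farthest from the median of the first gene they had r between 0.14 and 0.80. These values describe 17 libraries that share their scaling by library size, and no test was made on them.

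Calb1 went the opposite way to the same 5 genes, with r between -0.76 and -0.45 and rho between -0.69 and -0.27. The lowest was with Dock10 (r = -0.76, rho = -0.69), followed by C1ql2 (r = -0.75, rho = -0.63). As deviations from the group means these 5 values were -0.73 to -0.44, and without sgKcna1 replicate 1 they were -0.62 to -0.11. Without the 2 libraries farthest from the median of Calb1 or of Prox1 they were -0.55 to -0.11. The negative relation was not seen among the 5 control libraries, where Calb1 with Dock10 had r = -0.02 and Calb1 with C1ql2 had r = 0.39, although 5 libraries give little precision. Tdo2 had r of 0.14 to 0.41 with the 5 genes and rho of -0.10 to 0.25.

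**Figure D5:**
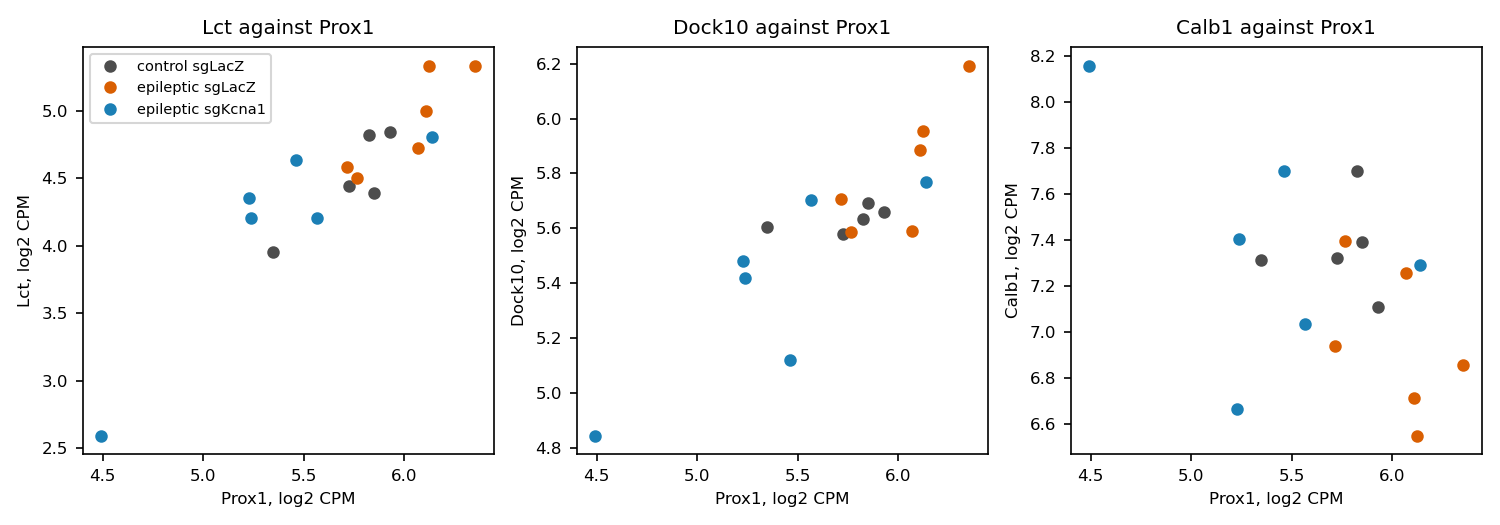
Log2 CPM of Lct, Dock10 and Calb1 (vertical axes) against that of Prox1 (horizontal axes), 1 point for each of the 17 libraries, coloured by group. Lct and Dock10 climb with Prox1 (r = 0.92 and 0.87), Calb1 falls with it (r = -0.57), and the point at the far left of each panel is epileptic sgKcna1 replicate 1.

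The genes whose pattern over the 17 libraries was most like each of the 8 were sought among the other 11382 tested genes with a symbol and a mean of at least 5 CPM. For Prox1 they were Olfml2b (r = 0.93) and Lct itself (r = 0.92), which ranked 2 of 11382. For C1ql2 they were Lrrc10b (r = 0.91) and Serpina3n (r = 0.87), a serine protease inhibitor of reactive astrocytes. For Lct they were Dhx33 (r = 0.95) and Cabp7 (r = 0.92), and for Dock10 Plekhg3 (r = 0.91) and Ermp1 (r = 0.89). Dsp was followed most closely by Clstn2, a calsyntenin (r = 0.94), and Lhfpl2 (r = 0.89). The closest to Calb1 were Fam19a1 (r = 0.90) and Pkib, an inhibitor of protein kinase A (r = 0.86). Tdo2 was closest to Hsd11b1, the enzyme that regenerates active glucocorticoid (r = 0.89), and 2500004C02Rik (r = 0.87). C1ql3, by its unstranded count, was closest to Sh3rf3 (r = 0.94) and Syn2 (r = 0.94). Prox1 ranked 9 of 11382 for C1ql2, 4 for Lct and 8 for Dock10.

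A further 12 genes enriched in granule cells served as a comparison, all of them tested. In epileptic sgLacZ against control mice 3 of the 12 rose and none fell, beside 7.26% and 3.76% of all tested genes. At an unadjusted p under 0.05 in edgeR 5 stood higher and 1 lower, beside 18.8% and 15.9% of all tested genes. Pdzd2, a PDZ domain protein, was at 13.8 ± 1.96 CPM (SD, n = 5) in control and 24.5 ± 11.4 CPM (SD, n = 6) in epileptic sgLacZ mice, a log2 fold change of 0.83 (SE 0.24, with an adjusted p of 0.0404 in edgeR). Pitpnm2, a phosphatidylinositol transfer protein, went from 120 ± 16.8 to 186 ± 57.4 CPM, a change of 0.63 (SE 0.18, adjusted p = 0.0391). Ahcyl2, a relative of adenosylhomocysteinase, had 0.76 (SE 0.24, adjusted p = 0.0488), which fell to 0.33 with an adjusted p of 0.0871 when both strand columns were added. The calls were kept in 8, 9 and 4 of the 17 fits without 1 library each, and in that comparison none of the 12 was called with the percent of unmapped reads or the sex as a covariate. The median of the 12 was 0.36 in that comparison, -0.39 in sgKcna1 against epileptic sgLacZ and -0.03 in sgKcna1 against control, beside medians of 0.02, -0.01 and 0.02 over all tested genes. Without epileptic sgLacZ replicate 4 the first was 0.23 and the second -0.25, and the first was 0.17 with the percent of unmapped reads as a covariate. In the comparison of the guides 0 of the 12 were called, beside 0% of all tested genes. At an unadjusted p under 0.05, 6 had lower and 1 had higher estimates, beside 10.5% and 8.69% of all tested genes. With the percent of unmapped reads as a covariate 1 of the 12 was lower at that level and the median was -0.11. Summed over the 12 genes the level was 502 to 657 CPM in control, 585 to 1104 in epileptic sgLacZ and 460 to 807 CPM in sgKcna1 libraries.

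Markers of immature granule cells were detected in all groups, and 0 of 7 were called in any comparison. All tested genes had 11.0% called in epileptic sgLacZ against control and 0% in the other comparisons. Neurod1, a transcription factor of new granule cells, was at 25.8 ± 1.54 CPM (SD, n = 5) in control, 19.9 ± 4.19 in epileptic sgLacZ and 25.3 ± 2.97 CPM in sgKcna1 mice (SD, n = 6), with a log2 fold change of -0.37 in the first comparison (edgeR adjusted p = 0.0684). Dcx, doublecortin, was at 5.26 ± 0.554, 7.07 ± 2.56 and 6.79 ± 2.39 CPM (adjusted p = 0.279).

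The hippocampal samples also held the other cell types of the region, whose markers are given here with their values beside the granule cell genes. Over all tested genes, 11.0% were called in epileptic sgLacZ against control mice, 7.26% higher and 3.76% lower. Calls in lists this short are therefore not read as a change of a cell type. In epileptic sgLacZ against control mice the test called 1 of 5 CA1 markers (Wfs1, 0.49, edgeR adjusted p = 0.0478), 2 of 4 CA3 markers (Bok, -0.52, adjusted p = 0.0454, and Homer3, 1.20, adjusted p = 0.0333), 2 of 5 astrocyte markers (Gfap, 0.60, adjusted p = 0.0447, and Aldh1l1, 0.33, adjusted p = 0.0391), 1 of 5 microglia markers (Csf1r, 0.38, adjusted p = 0.0356) and 1 of 5 thalamus and habenula markers (Pou4f1, 2.87, adjusted p = 0.0447). Homer3 and Csf1r fell to 0.29 (adjusted p = 0.0889) and 0.09 (adjusted p = 0.469) with both strand columns added. Pou4f1 rested on few reads, at 0.189 ± 0.221 CPM (SD, n = 5) in control and 1.39 ± 1.07 CPM (SD, n = 6) in epileptic sgLacZ libraries. Its control mean lies within the 0.106 to 0.253 CPM that 3 reads make up in a library. No marker was called of CA2 (4), mossy cells (4), the pan-neuronal set (4), interneurons (6), oligodendrocytes (5), endothelium (4) or choroid plexus (6), and none of 8 activity-regulated genes. None of these lists had a gene called in the 2 comparisons of the sgKcna1 mice, in which edgeR called no gene at all. Choroid plexus markers nevertheless had lower estimates in sgKcna1 than in epileptic sgLacZ mice for 6 of 6 genes, with a median of -1.01 on the log2 scale. Of the 6, 3 stood at an unadjusted p under 0.05, beside 10.5% of all tested genes in that direction. In epileptic sgLacZ against control mice their 6 estimates were all above 0, with a median of 0.87. These shifts go the same way as the medians of the 8 granule cell genes and are larger, and their part in those values was not tested. Summed astrocyte markers were at 895 to 1024 CPM in control, 1062 to 1559 in epileptic sgLacZ and 980 to 1366 CPM in sgKcna1 libraries. Summed CA3 markers were at 244 to 317, 237 to 269 and 158 to 268 CPM, with the lowest value in sgKcna1 replicate 1, the library with the lowest Prox1. Summed oligodendrocyte markers were at 5989 to 8524, 4737 to 6629 and 2528 to 9086 CPM, lowest in sgKcna1 replicate 1 and highest in sgKcna1 replicate 12. Replicate 1 of that group also had the highest sum of immature granule cell markers, 656 CPM, and a choroid plexus sum of 663 CPM. The part of the sampled region in the values of the granule cell genes was not tested.

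In the lists without a call the genes nearest to the threshold in epileptic sgLacZ against control mice were Pcp4 (-1.12, edgeR adjusted p = 0.0764) and Rgs14 (0.29, adjusted p = 0.153) for CA2, Ajap1 (0.37, adjusted p = 0.0755) and Calb2 (-0.24, adjusted p = 0.629) for mossy cells, and Snap25 (-0.26, adjusted p = 0.0609) and Eno2 (0.34, adjusted p = 0.0694) for all neurons. Sst (-0.80, adjusted p = 0.0505) stood beside Pvalb for interneurons, Cldn5 (-0.54, adjusted p = 0.135) and Slco1a4 (0.26, adjusted p = 0.204) for endothelium, Aqp1 (1.04, adjusted p = 0.172) and Clic6 (1.12, adjusted p = 0.172) for choroid plexus, and Fosb (0.49, adjusted p = 0.0969) and Junb (-0.53, adjusted p = 0.128) for activity-regulated genes. None of these passed.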

How the data were processed

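The authors deposited raw read counts per gene, 1 file for each library, made per the labels with STAR 2.7 on mm10; the annotation release is not given in the sources used here. Each file holds 4 summary lines, which were left out (22.1% to 54.5% of the reads), and 3 count columns, unstranded and 1 for each strand. The labels and the methods name different library kits, and the strand columns agreed within a ratio of 0.994 to 0.998, so the unstranded column was used. Symbols came from the reference gene tables, and exon lengths, used for levels per kilobase, from GENCODE M1 on NCBIM37. Groups followed the labels; the sources used here do not say that replicates came from separate animals, so p-values measure the spread between these samples, which may be technical.

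Counts of 17615 genes passing the filterByExpr filter were fitted in edgeR 4.0.16 (R 4.3.3) by the quasi-likelihood test with TMM scaling, all 17 libraries in 1 fit with 3 contrasts and Benjamini-Hochberg adjustment at 0.05. Log2 CPM used a prior count of 2. The script was tested on simulated data. DESeq2 1.42.0, limma 3.58.1 (voom with quality weights), RLE or no composition scaling, no filter, both strand columns added, percent unmapped or sex as a covariate, the compared groups alone and leaving out each library were the alternatives. A count of 0 allows up to 3 reads, 0.106 to 0.253 CPM by library, for counting error only. The members and lists were chosen with earlier results of these data known, as were the tests. From each list at most 3 called genes by size of change were named, or else the 2 with the smallest p, and for each of the 8 genes the 2 with the highest Pearson r. Map2 was not matched and is not analysed here, and some results of the lists are not reported here.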

Additional observations from a re-analysis of the deposited data

How the results depend on the processing

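No paired analysis was possible because the groups share no replicate numbers. Over the 8 genes and 3 comparisons, 9 other settings gave 216 values, of which 198 kept direction and side of the threshold, 9 newly passed it and 9 turned in direction. Leaving out 1 library at a time gave 408 values, of which 398 kept both, 5 newly passed and 5 turned. In epileptic sgLacZ against control, Dsp turned with RLE size factors (-0.0053), percent unmapped (-0.016) or sex (-0.29) as a covariate, DESeq2 (-0.0087) and voom (-0.16), and lay between -0.31 and 0.14 with 1 library left out. C1ql3 turned with both strand columns added, to -0.64 for epileptic sgLacZ against control, 0.60 for sgKcna1 against epileptic sgLacZ and -0.040 for sgKcna1 against control, and with percent unmapped as a covariate to 0.084 for sgKcna1 against epileptic sgLacZ. Calb1 in sgKcna1 against control lay between -0.12, without sgKcna1 replicate 1, and 0.18. The cause was not tested.

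In epileptic sgLacZ against control the number of the 8 genes called, 0 as reported, was 2 with the compared groups only (C1ql3 and Tdo2), 1 with DESeq2, 1 without composition scaling, 1 without a filter (C1ql3 in each), 4 with voom (Calb1, C1ql2, C1ql3 and Tdo2) and 0 to 2 with 1 library left out. The number at an unadjusted p under 0.05, reported as 3, was 6 with the compared groups only, 1 with sex as a covariate and 1 to 5 with 1 library left out. Over all genes the calls numbered 3045 with the compared groups only, 428 with percent unmapped, 516 with sex, 3686 with DESeq2, 7301 with voom and 0 to 5526 with 1 library left out. In sgKcna1 against epileptic sgLacZ the members called ranged from 0 to 1 with 1 library left out, and all genes called were 143 with DESeq2, 1 without a filter, 12 with voom and 0 to 1508 with 1 library left out, the last without epileptic sgLacZ replicate 5. In sgKcna1 against control all genes called were 266 with percent unmapped, 39 with DESeq2, 71 with voom and 0 to 14 with 1 library left out. Tdo2, with 13 to 262 reads a library, is the gene most limited by depth.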
